A study of Danio rerio with 6 samples.

Results

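The miR-143 and miR-145 products of zebrafish ZF4 cells are described here across a cold acclimation experiment. They are the 3 mature miRNAs dre-miR-143, dre-miR-145-5p and dre-miR-145-3p, chosen by name, of 414 miRNAs in the table. All 3 passed the filter on low values and belong to the 310 miRNAs tested. ZF4 is a fibroblast line derived from zebrafish embryos. Small RNA was sequenced from 3 control libraries of cells grown at 28 °C and from 3 libraries of cells moved to 18 °C for 30 days, all in the same medium with fetal bovine serum. The labels describe the 3 libraries of a condition as biological replicates of this 1 cell line, and they do not say whether a replicate was a separate culture, so p-values measure the spread between these libraries.

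miR-143 and miR-145 are cut from neighbouring hairpins, which in vertebrates are transcribed together. They are best known from smooth muscle, where serum response factor and myocardin drive their transcription and where they favour the contractile over the proliferating state. Fibroblasts and other mesenchymal cells make them as well, while epithelia and neurons make little. dre-miR-143 is the main product of its hairpin. dre-miR-145-5p is the main strand of the miR-145 hairpin and dre-miR-145-3p the partner strand from the other arm, which is commonly degraded once the main strand has been loaded into an Argonaute protein. In the RefSeq gene table of the GRCz12tu assembly, mir145 overlapped the long non-coding gene LOC137487609, with fbxo38 and csnk1a1 as its nearest protein-coding neighbours. That assembly is not the one named for the deposited data (danRer10), so no coordinates are given.

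Levels are given in TPM, here the reads of a miRNA per 1000000 miRNA reads of its library, without any correction for length. The libraries held 11748241 to 14960610 such reads. The value of 1 read lay between 0.0668 and 0.0851 TPM. Control replicate 3 stood apart from the other controls: among the 310 miRNAs tested, 17 lay over 1 below, and 7 over 1 above, the mean of control replicates 1 and 2 in log2(TPM + 1), while these replicates differed from each other by that much in 1 miRNA. The log2 fold changes and ratios of the 3 products are therefore also given without that library, as are other results where stated. Intervals on single libraries cover counting error only.

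dre-miR-143 was by far the most abundant of the 3 products. It had 4765, 4665 and 374 TPM in control replicates 1, 2 and 3, and 2165, 2252 and 1147 TPM in cold acclimation replicates 1, 2 and 3. Control replicates 1 and 2 were thus the highest of the 6 libraries and control replicate 3 the lowest, with every cold acclimation library between them. Among the 349 known miRNAs dre-miR-143 ranked 21st and 23rd in control replicates 1 and 2 but 81st in control replicate 3, and between 31st and 37th in the cold acclimation libraries. The 374 TPM of control replicate 3 rest on 5423 reads, with an exact 95% Poisson interval of 364 to 384 TPM, so the gap to the other controls is far beyond counting error.

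dre-miR-145-5p, the main strand of its hairpin, was far less abundant than dre-miR-143 but had the same order of libraries. It had 91.4, 142 and 10.6 TPM in control replicates 1, 2 and 3, and 43.6, 34.9 and 20.8 TPM in cold acclimation replicates 1, 2 and 3. Again control replicates 1 and 2 were above every cold acclimation library, and control replicate 3 was below every one of them. The low value of control replicate 3 rests on 154 reads, with a Poisson interval of 9.01 to 12.4 TPM.

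dre-miR-145-3p, the partner strand, was the rarest. Its levels were 24.3, 23.8 and 1.72 TPM in control replicates 1, 2 and 3, and 11.0, 13.8 and 6.73 TPM in cold acclimation replicates 1, 2 and 3. With 25 reads in control replicate 3, its Poisson interval of 1.12 to 2.55 TPM stayed below that of cold acclimation replicate 3, 5.44 to 8.24 TPM, the next lowest library. The order of control replicates 1 and 2, cold acclimation replicates 1 and 2, cold acclimation replicate 3 and control replicate 3, from high to low, was thus common to all 3 products. This order was noticed after the values were seen. Over the 310 miRNAs tested, 4 had it (1.29%), the other one being dre-miR-135c.

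**Figure D1:**
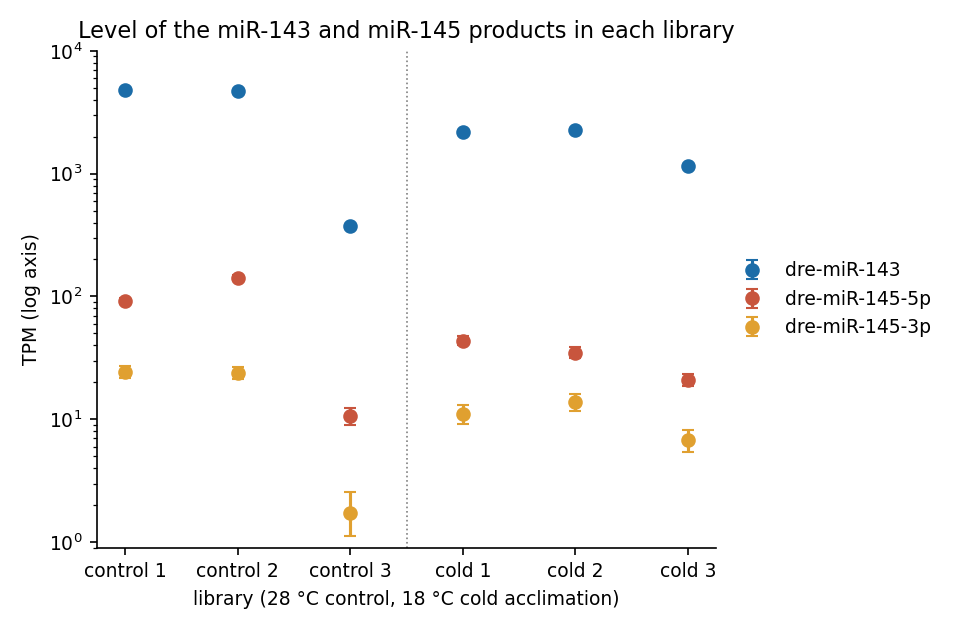
TPM on a log axis of dre-miR-143, dre-miR-145-5p and dre-miR-145-3p in each of the 3 control libraries (28 °C) and 3 cold acclimation libraries (18 °C), with exact 95% Poisson intervals for counting error. All 3 products were highest in control replicates 1 and 2, lowest in control replicate 3, and lower in cold acclimation replicate 3 than in the other cold acclimation libraries.

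The deficit in control replicate 3 was of like size in the 3 products. Relative to the mean of control replicates 1 and 2, dre-miR-143 was 12.6-fold lower, dre-miR-145-5p 11.0-fold lower and dre-miR-145-3p 14.0-fold lower in control replicate 3. On the log2(TPM + 1) scale the differences were -3.65, -3.31 and -3.20. These were the 3 lowest values among the 310 miRNAs tested, of which 5.48% lay below -1 and whose median was -0.0011. The next in size were dre-miR-455-5p, from a cartilage miRNA gene (13.2, 13.8 and 1.79 TPM in control replicates 1, 2 and 3; difference -2.38), and dre-miR-430b-3p, of the family that clears maternal mRNA in the early embryo (144, 182 and 31.7 TPM; difference -2.32). Other miR-455 products differed far less, dre-miR-455-3p by -0.14 and dre-miR-455-2-5p by -0.25. This ranking depends on the scale, since the added 1 TPM shrinks the differences of rare miRNAs. dre-miR-135c, with 4.55, 5.83 and 0.345 TPM in control replicates 1, 2 and 3, differed by -2.19. In plain TPM its fold deficit was larger than those of the 3 products. With 1 library on that side, these are descriptions with no test.

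**Figure D2:**
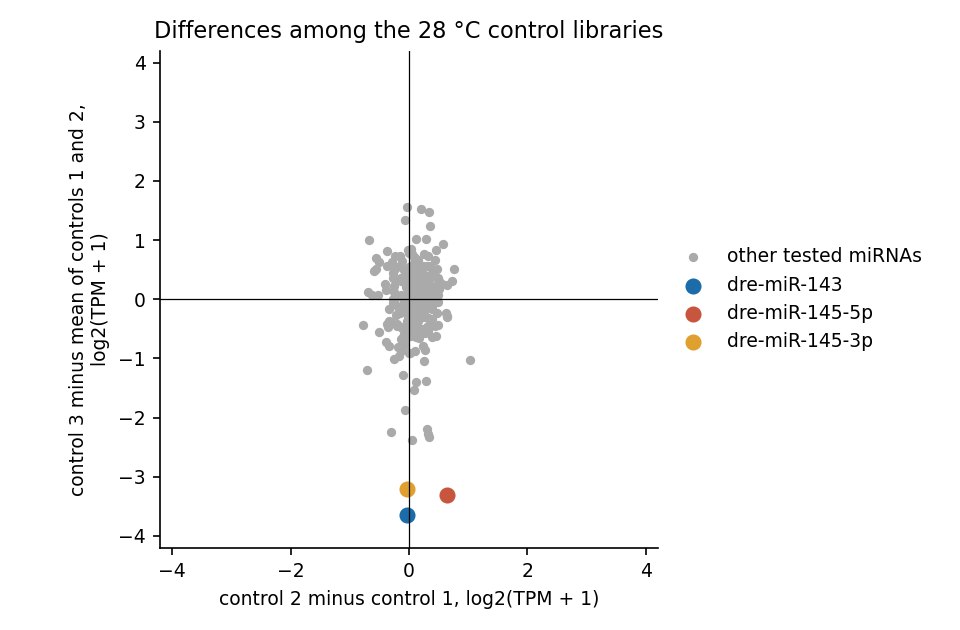
Each point is 1 of the 310 miRNAs tested, on the log2(TPM + 1) scale, with the difference of control replicate 2 from control replicate 1 on the horizontal axis and that of control replicate 3 from the mean of both on the vertical axis. dre-miR-143, dre-miR-145-3p and dre-miR-145-5p lie at -3.65, -3.20 and -3.31 on the vertical axis, below all other miRNAs, while the first 2 controls differed by at most 0.63 in them.

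The study's comparison is of cold acclimated with control cells. With all 6 libraries, 0 of the 3 products passed the test with limma, 0 of them had an unadjusted p under 0.05, and in each of them the libraries of the conditions overlapped. Conditions were compared with limma on log2(TPM + 1), and the words rose and fell are kept for an adjusted p under 0.01 (Benjamini-Hochberg, all 310 miRNAs). Over all 310, 51 (16.5%) rose and 45 (14.5%) fell, and 58.1% showed no overlap between control and cold acclimation libraries. At an unadjusted p under 0.05 from limma, 28.4% were higher and 27.7% lower.

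The mean of dre-miR-143 was 3268 ± 2507 TPM (SD, n = 3) at 28 °C and 1855 ± 614 TPM (SD, n = 3) at 18 °C. Its log2 fold change was -0.19 with a standard error of 0.81, and its adjusted p from limma was 0.89. For dre-miR-145-5p the means were 81.5 ± 66.5 TPM (SD, n = 3) at 28 °C and 33.1 ± 11.5 TPM (SD, n = 3) at 18 °C. Its log2 fold change was -0.71 ± 0.76 (standard error), and limma gave an adjusted p of 0.465. dre-miR-145-3p averaged 16.6 ± 12.9 TPM (SD, n = 3) at 28 °C and 10.5 ± 3.56 TPM (SD, n = 3) at 18 °C. Its log2 fold change was -0.11 ± 0.73 (standard error), and limma gave an adjusted p of 0.928. The 95% intervals of these log2 fold changes ran from -2.001 to 1.62, from -2.41 to 0.98 and from -1.73 to 1.52. They hold both a 2-fold lower and, for dre-miR-143 and dre-miR-145-3p, a 2-fold higher level in the cold, so a change of that size was not detectable with this spread between controls.

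This outcome rested on control replicate 3. That library was left out with its values known, and on the log2(TPM + 1) scale the 3 products had the largest deficits in it of all 310 miRNAs tested. The falls and p-values without it follow in part from that choice and are no independent test. The products come from neighbouring hairpins, so they need not count as 3 separate results. Without control replicate 3, all 3 products fell, along with 67 of the 310 miRNAs in all (21.6%). dre-miR-143 then had 4715 ± 70.5 TPM (SD) in 2 control libraries against 1855 ± 614 TPM (SD) in 3 cold acclimation libraries, and its log2 fold change was -1.41 ± 0.22 (standard error), at an adjusted p of 9.98e-05 from limma. The log2 fold change of dre-miR-145-5p was then -1.82 ± 0.28 (standard error), with an adjusted p of 9.95e-05 from limma, and that of dre-miR-145-3p was -1.17 ± 0.27, with an adjusted p of 0.00218. In linear terms the mean of the control libraries kept was 2.54, 3.53 and 2.29 times that of the cold acclimation libraries for dre-miR-143, dre-miR-145-5p and dre-miR-145-3p. The direction turned when another library was left out: without control replicate 1 the log2 fold changes were 0.42 for dre-miR-143 and 0.43 for dre-miR-145-3p, without control replicate 2 they were 0.41 and 0.42, and without cold acclimation replicate 3 they were 0.12 and 0.16, none of which passed the test. dre-miR-145-5p remained below 0 in each of these fits, with -0.32, -0.0025 and -0.42. Set against control replicate 3 alone, the mean of the cold acclimation libraries was 4.96-fold higher for dre-miR-143, 3.12-fold higher for dre-miR-145-5p and 6.10-fold higher for dre-miR-145-3p.

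**Figure D3:**
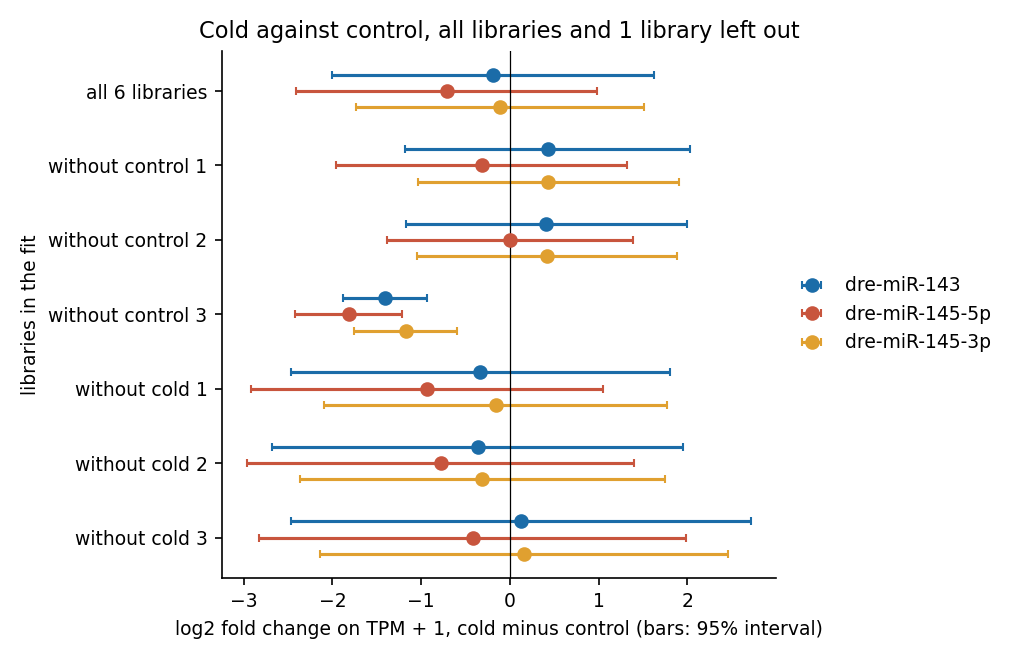
Log2 fold change (cold acclimation minus control, on TPM + 1) of dre-miR-143, dre-miR-145-5p and dre-miR-145-3p with its 95% interval from limma, for all 6 libraries and with each library left out. The intervals span 0 in every fit but the one without control replicate 3, where the values are -1.41, -1.82 and -1.17.

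The cold acclimation libraries also differed among themselves. The mean of cold acclimation replicates 1 and 2 was 1.93 times the level of replicate 3 for dre-miR-143, 1.88 times for dre-miR-145-5p and 1.84 times for dre-miR-145-3p. Within each group the 3 products thus shared a like factor between replicate 3 and the mean of replicates 1 and 2. That factor was far larger in the controls. Between replicates 1 and 2, dre-miR-145-5p went from 91.4 to 142 TPM in the controls, where dre-miR-143 and dre-miR-145-3p hardly changed. In the cold dre-miR-145-5p went from 43.6 to 34.9 TPM, whereas dre-miR-145-3p went from 11.0 to 13.8 TPM. Over the 6 libraries, Pearson's r of log2(TPM + 1) was 0.997 between dre-miR-143 and dre-miR-145-3p, 0.958 between dre-miR-143 and dre-miR-145-5p, and 0.944 between the strands of miR-145. The points are the same 6 libraries, and control replicate 3 lies far from the rest in each pair.

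Ratios within a library do not depend on its total. Reads of dre-miR-143 per read of dre-miR-145-3p, from neighbouring hairpins, stayed within a narrow range in all 6 libraries, at 196, 196 and 217 in control replicates 1, 2 and 3 and 197, 163 and 170 in cold acclimation replicates 1, 2 and 3. The groups overlapped, and their means were 203 ± 12.2 and 177 ± 17.5 (SD, n = 3 each; log2 difference -0.20). The ratio in control replicate 3 is thus like that in the other controls, although both products were lower there by more than 10-fold. How well each sequence is ligated and amplified differs between miRNAs, so a ratio of reads need not be the ratio of molecules in the cell.

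The strand ratio of miR-145 varied more. Reads of dre-miR-145-5p per read of dre-miR-145-3p were 3.76, 5.97 and 6.16 in control replicates 1, 2 and 3, and 3.96, 2.53 and 3.10 in cold acclimation replicates 1, 2 and 3. Cold acclimation replicates 2 and 3 were below every control library, while cold acclimation replicate 1 was above control replicate 1. As a share of miR-145 reads, the 5p strand made up 79.0% in control replicate 1 (Wilson 95% interval 77.0% to 80.8%) and 85.7% in control replicate 2 (84.2% to 87.0%), so replicates of 1 condition differed by more than counting error. In the cold acclimation libraries the share was 79.8%, 71.7% and 75.6%. The mean ratio was 5.30 ± 1.34 (SD, n = 3) at 28 °C and 3.20 ± 0.721 (SD, n = 3) at 18 °C.

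The reads of dre-miR-143 per read of dre-miR-145-5p were 52.1, 32.8 and 35.2 in control replicates 1, 2 and 3, and 49.6, 64.5 and 55.0 in cold acclimation replicates 1, 2 and 3. Here control replicate 1 was within the range of the cold acclimation libraries and the other controls were below it. The ratios were compared between the conditions with an exact two-sided permutation test, whose smallest p with 3 against 3 libraries is 0.1, so that no difference could pass 0.05. The log2 difference between cold acclimated and control cells was -0.72 for the strands of miR-145 (exact permutation p = 0.2), 0.52 for dre-miR-143 to dre-miR-145-5p (exact permutation p = 0.2) and -0.20 for dre-miR-143 to dre-miR-145-3p (exact permutation p = 0.3). Each had p = 0.3 after Benjamini-Hochberg adjustment over these 3 exact tests. Without control replicate 3 the log2 differences were, in the same order, -0.59, 0.44 and -0.15.

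**Figure D4:**
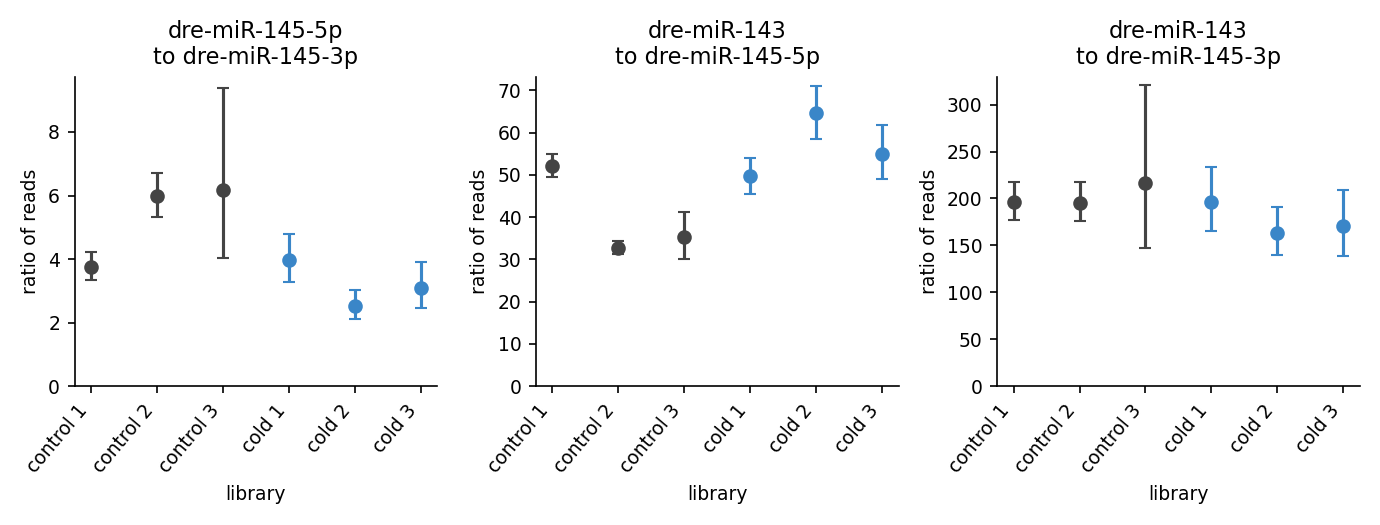
Ratio of reads between products in each of the 3 control and 3 cold acclimation libraries, each panel with its own linear axis from 0, and bars for the Wilson 95% interval of counting error. The ratio of dre-miR-143 to dre-miR-145-3p lies between 163 and 217 in all libraries, while the strands of miR-145 range from 2.53 to 6.16.

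On the log2(TPM + 1) scale, no other known miRNA had a profile as close to that of dre-miR-143 as the miR-145 strands. Likeness was measured as the root mean square difference between log2(TPM + 1) profiles over the 6 libraries, each centred on its own mean. It was 0.18 for dre-miR-145-3p and 0.36 for dre-miR-145-5p, against a median of 1.32 over all 244 known miRNAs tested besides dre-miR-143. The next were dre-miR-135c (0.54), dre-miR-455-5p (0.58), dre-miR-430b-3p (0.76), dre-miR-199-5p (0.87), dre-miR-187 (0.94) and dre-miR-430c-3p (0.96). The added 1 TPM flattens the profiles of rare miRNAs such as dre-miR-135c. Likeness was not computed with another pseudocount, so the order of dre-miR-145-5p and dre-miR-135c may rest on this choice. With 6 libraries this measure is set largely by control replicate 3. Without that library dre-miR-145-3p was still the closest, at 0.15, but dre-miR-145-5p was in place 13, at 0.31, and 1 of these 8 miRNAs was still among the 8 closest.

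dre-miR-135c was the only one of these outside the cluster with the same order of libraries. It had 4.55, 5.83 and 0.345 TPM in control replicates 1, 2 and 3, and 2.57, 3.49 and 2.005 TPM in cold acclimation replicates 1, 2 and 3, which for control replicate 3 is a handful of reads. dre-miR-455-5p, dre-miR-430b-3p and dre-miR-430c-3p were also low in control replicate 3, but their cold acclimation libraries overlapped with, or lay above, control replicates 1 and 2. dre-miR-455-5p had 12.2, 14.0 and 8.52 TPM in the cold acclimation libraries, against 13.2 and 13.8 TPM in control replicates 1 and 2. dre-miR-187 had 10.8, 8.61 and 1.24 TPM in control replicates 1, 2 and 3 and 0.788 to 1.02 TPM in the cold, a log2 fold change of -1.73 with an adjusted p from limma of 0.0175. Without control replicate 3 its log2 fold change was -2.48, with an adjusted p from limma of 6.98e-07.

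Other mesenchymal miRNAs were compared in the same way. Of 10 listed, all were tested, 2 fell and 0 rose in limma, where 14.5% of all 310 fell and 16.5% rose, so the count that fell was near the share over all miRNAs. At an unadjusted p under 0.05, 4 were lower and 1 was higher, against 27.7% lower and 28.4% higher of all 310. The list had a median log2 fold change of -0.49 against 0.019 over all 310. dre-miR-199-3p, a miRNA of connective tissue, went from 6292, 5568 and 3045 TPM in control replicates 1, 2 and 3 to 2340, 2475 and 2107 TPM in the cold acclimation libraries (log2 fold change -1.04, adjusted p from limma 0.00631). dre-miR-199-3-3p fell as well, from 896, 846 and 856 TPM to 513, 559 and 435 TPM (log2 fold change -0.79, adjusted p from limma 0.0026). In control replicate 3 it hardly differed from the mean of the other controls, by -0.024 on the log2 scale. Both of these calls were lost when either replicate 1 was left out, and 1 of the 10 fell without control replicate 2, cold acclimation replicate 2 or cold acclimation replicate 3.

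dre-miR-214, which is made from the same transcript as miR-199 in vertebrates, had 1722, 1637 and 456 TPM in control replicates 1, 2 and 3 and 359, 332 and 406 TPM in the cold acclimation libraries. It was thus low in control replicate 3 as dre-miR-143 was, but there it remained above the cold acclimation libraries (log2 fold change -1.58, adjusted p from limma 0.0122). dre-miR-199-5p had 6087, 7440 and 2594 TPM in the controls and 2884, 3105 and 3176 TPM in the cold (log2 fold change -0.68, adjusted p from limma 0.102). Without control replicate 3, 5 of the 10 fell, where 21.6% of all 310 fell in that fit: dre-miR-199-5p, dre-miR-199-3p, dre-miR-199-3-3p, dre-miR-214 and dre-miR-140-3p. All of these but dre-miR-140-3p are miR-199 strands or dre-miR-214, so they need not be independent of each other.

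The rest of the mesenchymal list differed far less between control replicate 3 and the other controls than the miR-143 and miR-145 products did. dre-miR-21, the most abundant miRNA of these cells, differed in control replicate 3 by 0.034 on the log2 scale, and dre-miR-140-5p, dre-miR-140-3p, dre-miR-22a-3p, dre-miR-29a and dre-miR-29b differed by -0.28 to 0.48. dre-miR-21 had a log2 fold change of 0.016 in the cold (adjusted p from limma 0.899). The summed level of the list was 439240 TPM in control replicate 3, against 444207 and 446456 TPM in the other controls and 445371 to 468487 TPM in the cold acclimation libraries, most of it dre-miR-21.

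**Figure D5:**
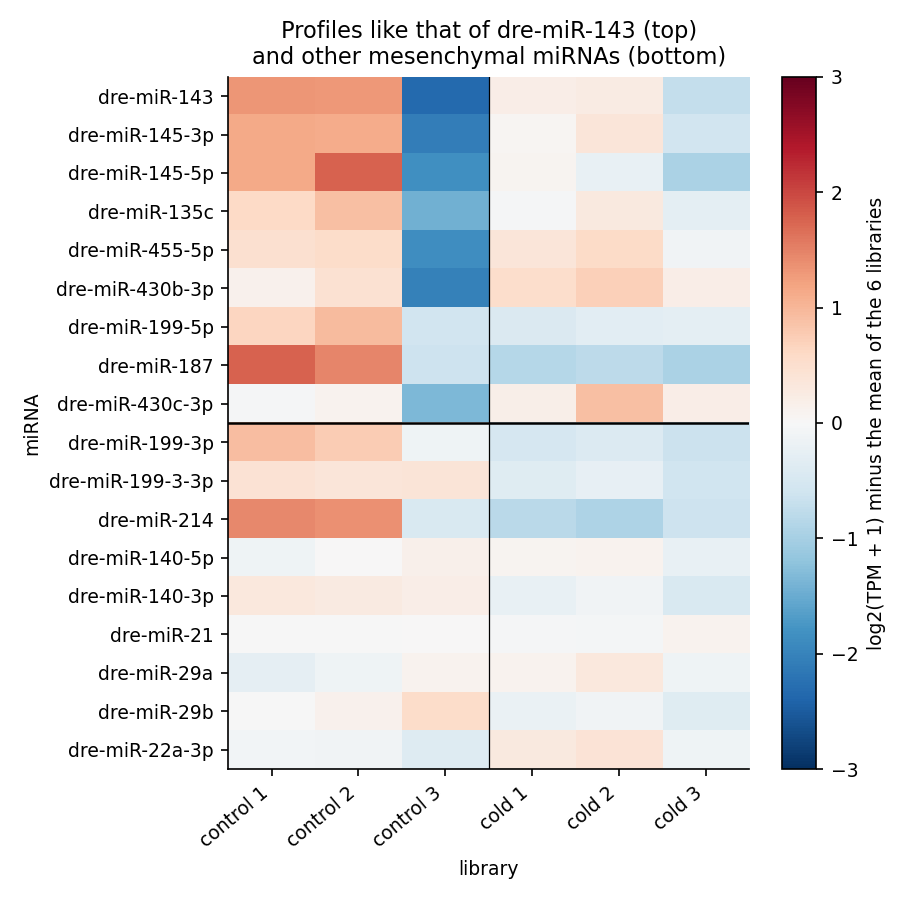
Log2(TPM + 1) minus the mean of the 6 libraries for dre-miR-143 and the 8 known miRNAs most like it (above the line) and for the other mesenchymal miRNAs (below the line); columns are the 3 control and 3 cold acclimation libraries, red is above and blue below a miRNA's own mean. On this scale the miR-145 strands follow dre-miR-143 most closely, dre-miR-214 is low in control replicate 3 and in the cold, and dre-miR-21 is flat.

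Markers of other cell types were looked at beside the low values of control replicate 3. In bulk RNA, fewer cells of a type and less of a miRNA per cell cannot be told apart. Striated muscle markers were near 0 in every library: of 6 listed, dre-miR-133a-3p alone was abundant enough to be tested, at 5.21, 4.96 and 2.55 TPM in control replicates 1, 2 and 3 and 1.87 to 2.82 TPM in the cold, and the list summed to 2.89 to 6.75 TPM. The endothelial list (strands of miR-126, 2 of 4 tested) summed to 9.02, 8.75 and 4.62 TPM in the controls and 5.36 to 6.01 TPM in the cold, and its defining strand dre-miR-126a-3p was at most 0.334 TPM. Blood markers (2 of 6 tested) summed to 2.99 to 6.14 TPM, highest in control replicate 3.

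The epithelial markers went the other way in control replicate 3. Their 9 members summed to 103, 126 and 197 TPM in control replicates 1, 2 and 3 and to 98.7 to 135 TPM in the cold, and all 6 tested members were higher in control replicate 3 than in the mean of the other controls, by 0.016 to 0.93 on the log2 scale. The smallest of these, 0.016 in dre-miR-203b-3p, was close to no difference. Over all 310 miRNAs the median was -0.0011, so about as many were higher there as lower. dre-miR-141-3p, of the miR-200 family, had 65.0, 78.0 and 121 TPM in the controls. dre-miR-205-5p, of stratified epithelia, was at most 0.994 TPM in any library. The neural list (4 of 6 tested) summed to 683, 931 and 878 TPM in the controls and 908 to 1341 TPM in the cold, with dre-miR-124-3p at most 0.401 TPM. Most of that sum was dre-miR-128-3p and dre-miR-138-5p. In control replicate 3 the tested neural members differed from the mean of the other controls by -0.59 to 0.50 on the log2 scale, 3 below 0 and 1 above. Of those below 0, dre-miR-9-5p was close to no difference, at -0.0019. With all 6 libraries, limma called 0 of the tested members of these lists, where 16.5% of all 310 rose and 14.5% fell. At an unadjusted p under 0.05, 1 member each of the striated muscle and epithelial lists was lower. In the blood and neural lists 1 member each was higher, and in the endothelial list 0 passed. Of all 310, 27.7% were lower and 28.4% higher at that threshold. Without control replicate 3, dre-miR-133a-3p fell and 1 of the 2 tested blood markers, dre-miR-451 of red blood cells, rose, where 21.6% of all 310 fell and 21.9% rose in that fit. What part cell makeup has in the levels of miR-143 and miR-145 was not tested.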

How the data were processed

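Small RNA of ZF4 cells (3 control and 3 cold acclimation libraries) was sequenced as 50-bp reads. The authors kept reads of 17 to 35 nt, mapped them to the mature sequences of miRBase 22 (bowtie 2.3.0), and miRCat supplied predicted miRNAs. The authors deposited 1 table of CPM values (reads per 1000000 miRNA reads, which they name TPM) for 349 known and 65 predicted miRNAs. For multi-mapping reads, the treatment is not given in sources used here. Reads behind a value were taken from the value of 1 read in each library (largest deviation from whole 0.00056 reads). No libraries had identical values (0 pairs). log2(TPM + 1) of the 310 miRNAs with a mean above 1.5 TPM was fitted with limma 3.58.1 (eBayes with trend) in R 4.3.3, without pairing. No count model was run, since under 100 low values per library lay within the range used to establish whole reads. Ratios were tested with exact permutation in SciPy 1.17.1, and figures drawn with matplotlib 3.10.9. The fit was tested on simulated data with independent noise and no deviating library. That test therefore does not bear on the effect of control replicate 3.

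The members, lists and tests were chosen with earlier results of these data known. Named miRNAs are the members, the 8 known miRNAs most like dre-miR-143, and the 5 largest deficits and excesses in control replicate 3. Of the lists, the rule was to name tested members (with over 8 tested, the 3 most abundant). Not every tested member of the smaller lists is named, and some untested members are. A part of the rule on shared seeds was not applied, since mature sequences were not analysed here. Members of the mesenchymal list outside this rule were named after their values were seen. Alternatives were other pseudocounts (0.1 and 5), filters and scalings, known miRNAs alone, a replicate block and each library left out; counts within the lists under these alternatives were added after seeing the data. Clean reads for 1 scaling are those of the paper.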

Additional observations from a re-analysis of the deposited data

How the results depend on the processing

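With no library left out, the 27 other fits of the 3 products kept the direction and passed no test. Their log2 fold changes ran from -0.49 to -0.19 for dre-miR-143, from -1.01 to -0.71 for dre-miR-145-5p and from -0.39 to -0.0059 for dre-miR-145-3p, with adjusted p of at least 0.66, 0.294 and 0.685. With 1 library left out they ran from -1.41 to 0.42, from -1.82 to -0.0025 and from -1.17 to 0.43. Whether the replicate numbers pair the libraries is not known. Deviations of same-numbered libraries correlated at 0.015, 0.14 and 0.060 for numbers 1, 2 and 3, against -0.089 to 0.0091 for the other pairs. All 3 products were lowest in replicate 3 of both conditions. A replicate block lowered the standard error of dre-miR-143 from 0.81 to 0.53 and gave dre-miR-145-5p an adjusted p of 0.294 from limma. With that block 39 miRNAs rose and 30 fell over all tested. In the main fit, 51 rose and 45 fell over all tested. With known miRNAs alone 27 fell, a fit that leaves out the predicted miRNAs among the 45, which make up most of this drop. Per clean read 32 rose and 77 fell, a scaling that moved the median log2 fold change from 0.019 to -0.23. With 1 library left out, 24 to 68 rose and 18 to 67 fell, the lowest without cold acclimation replicate 1 and the highest without control replicate 3. The cause of the other shifts was not tested. In the mesenchymal list 4 fell with clean reads or with dre-let-7a and dre-miR-100-5p taken out of the totals, and 1 with no filter. The 3 log2 ratios kept their direction with a pseudocount of 1 TPM and with each library left out, in a design too small to pass a threshold. The planned edgeR and DESeq2 fits were not run. Every value lay within 0.00056 reads of a whole read, but under 100 low values per library lay within the range that the rule for count models used. At 25 reads, dre-miR-145-3p in control replicate 3 is limited by counting error.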

Other observations

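In 7 of the 310 miRNAs tested, control replicate 3 was over 1 above the mean of control replicates 1 and 2 in log2(TPM + 1). This is against the direction of the miR-143 and miR-145 products. The 5 largest of these excesses among known miRNAs are given here. dre-let-7b, a miRNA of differentiated cells, had 215, 206 and 537 TPM in control replicates 1, 2 and 3, and 168 to 202 TPM in the cold acclimation libraries. dre-miR-196b, which is encoded in a Hox cluster, had 6.75, 8.75 and 23.2 TPM in the controls and 13.9 to 21.2 TPM in the cold. dre-miR-727-3p had 20.7, 26.7 and 56.9 TPM, dre-miR-222b 2.61, 3.14 and 10.1 TPM and dre-miR-736 2.47, 2.41 and 9.17 TPM in control replicates 1, 2 and 3. dre-let-7b and dre-miR-727-3p in the cold were thus closer to control replicates 1 and 2 than to control replicate 3, whereas dre-miR-196b was between those and control replicate 3. With 1 library on that side these are values with no test.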
